A study of Caenorhabditis elegans with 2 samples.

Results

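Autosomal TBX-2 peaks that lie between genes and away from promoters made up 767 of the 4384 peaks in the deposited optimal IDR list. That list is thresholded by irreproducible discovery rate (IDR), a measure of how well the ranks of regions agree. A listed peak need not match a region in both replicate lists, and some of the 767 did not. These far intergenic peaks were 17.5% of all listed peaks (exact Clopper-Pearson 95% interval, 16.4 to 18.7) and 21.8% of the 3517 autosomal ones (20.5 to 23.2). A peak was taken by the place of its summit alone. The summit had to lie outside every protein-coding gene, outside the window from 1000 bp upstream to 200 bp downstream of every protein-coding transcript start, and more than 200 bp from any tRNA, snRNA or snoRNA gene. Neither the strength of a peak nor its sequence was used. The remaining autosomal peaks were 2033 promoter peaks, 478 intronic peaks outside promoters, 48 exonic peaks outside promoters and 191 peaks beside the small RNA genes. A further 867 peaks lay on X.

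The peaks came from chromatin immunoprecipitation followed by sequencing (ChIP-seq) of whole Caenorhabditis elegans hermaphrodites at the L1 larval stage, 6 h after synchronization by starvation of hatched larvae after bleaching. Both samples, biological replicates 1 and 2, belong to 1 group of the strain OP159, whose genotype is given as unc-119(ed3) III; wgIs159. The integrated transgene makes TBX-2 that carries GFP and FLAG at its C terminus, and an antibody to GFP pulled down the bound chromatin. There was no second condition, so the peaks are described among themselves and against other peak classes of the same animals. The tag marks TBX-2 in every cell that expresses the transgene, so a peak cannot be assigned to a cell type.

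TBX-2 belongs to the T-box family of transcription factors, which bind DNA through a conserved domain that recognises variants of the sequence GGTGTGA. In C. elegans, TBX-2 is known for its part in forming anterior pharyngeal muscle in the embryo, where it can act as a repressor. Worm genes are mostly controlled from short upstream regions, and a summit far from any start may mark a distal element or an unannotated start.

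The sequences at the summits of the 10 highest ranked far intergenic peaks on chromosomes II to V are shown for their repeated words. By adjusted p, GAGAGA came first among words of 6 bases more frequent at the summit than beside it. Intronic and promoter summits held it too. Ranks were averaged over both replicate lists. Each line gives the gene with the nearest transcript start and 50 bases to each side of the summit, on the plus strand of ce11 (WBcel235, RefSeq sequence). Capitals mark the words GAGAGA, AGACGCAG and CACGTG on either strand. Windows without capitals held none of them.
cmd-1 (chrV:1151459-1151559): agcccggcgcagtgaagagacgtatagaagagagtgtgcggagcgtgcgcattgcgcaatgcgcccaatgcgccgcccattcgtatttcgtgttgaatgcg
sup-26 (chrIII:4282170-4282270): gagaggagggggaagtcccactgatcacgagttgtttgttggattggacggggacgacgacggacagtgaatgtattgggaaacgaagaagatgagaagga
hif-1 (chrV:20778388-20778488): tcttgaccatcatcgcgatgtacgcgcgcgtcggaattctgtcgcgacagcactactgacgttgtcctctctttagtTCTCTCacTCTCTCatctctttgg
F58D12.3 (chrV:14055174-14055274): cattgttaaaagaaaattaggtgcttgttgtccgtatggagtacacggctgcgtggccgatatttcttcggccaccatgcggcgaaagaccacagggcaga
mtm-3 (chrIII:3801497-3801597): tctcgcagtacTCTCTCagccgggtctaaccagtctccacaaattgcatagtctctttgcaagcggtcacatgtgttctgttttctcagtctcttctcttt
F54F12.1 (chrIII:13061255-13061355): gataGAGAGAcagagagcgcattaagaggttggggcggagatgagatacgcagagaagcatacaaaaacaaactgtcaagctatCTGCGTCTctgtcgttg
T04C4.3 (chrIV:2219590-2219690): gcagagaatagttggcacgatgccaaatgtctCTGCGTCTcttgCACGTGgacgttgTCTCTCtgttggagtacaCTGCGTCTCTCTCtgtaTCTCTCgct
nhr-88 (chrII:2973994-2974094): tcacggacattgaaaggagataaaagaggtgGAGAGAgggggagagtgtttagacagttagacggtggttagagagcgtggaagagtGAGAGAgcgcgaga
Y105C5A.1 (chrIV:15570891-15570991): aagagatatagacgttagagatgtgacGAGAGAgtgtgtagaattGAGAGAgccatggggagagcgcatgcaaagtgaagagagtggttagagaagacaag
F07H5.13 (chrII:8787546-8787646): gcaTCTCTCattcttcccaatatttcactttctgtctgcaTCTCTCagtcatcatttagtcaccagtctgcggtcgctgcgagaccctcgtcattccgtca

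Of these 10 windows, those at hif-1, mtm-3, F54F12.1, T04C4.3, nhr-88, Y105C5A.1 and F07H5.13 held GAGAGA. AGACGCAG was found at F54F12.1 and T04C4.3, and CACGTG at T04C4.3. The windows at cmd-1, sup-26 and F58D12.3, among the 4 highest ranked members, held none of the 3 words.

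The T-box site GGTGTGA occurred within 50 bp of the summit of 4 members. The windows of 3 of them are shown on the same build and strand, with the site in capitals, because it is the sequence the factor's family is known to bind.
F54D1.6 (chrIV:11284152-11284252): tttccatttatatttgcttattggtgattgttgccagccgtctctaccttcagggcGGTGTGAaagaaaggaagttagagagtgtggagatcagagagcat
mnk-1 (chrII:10557385-10557485): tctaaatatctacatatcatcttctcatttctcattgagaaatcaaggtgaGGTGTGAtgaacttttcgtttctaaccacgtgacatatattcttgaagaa
asd-1 (chrIII:4195536-4195636): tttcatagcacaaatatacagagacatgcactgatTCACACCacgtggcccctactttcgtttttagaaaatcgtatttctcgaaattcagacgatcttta

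The strongest far intergenic peaks reached the level of the strongest peaks of the whole list. At cmd-1, which encodes calmodulin, the peak (chromosome V, 1151285 to 1151731) ranked 10 in the list with a signal of 1402, and the replicate signals were 497 (replicate 1) and 902 (replicate 2). Signal here means the peak caller's own measure of enrichment, whose units the deposited notes do not name, and the replicate lists need not share a scale. The summit lay 4762 bp upstream of the nearest cmd-1 start, in a gap of 9769 bp between cutl-22 and cmd-1, and the cmd-1 promoter window held no IDR peak.

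At sup-26, which encodes an RNA-binding protein, the signal was 1218 (466 in replicate 1 and 747 in replicate 2), 1996 bp upstream of the start (chromosome III, 4281908 to 4282627). At hif-1, the hypoxia-inducible factor gene, it was 1146 (452 in replicate 1 and 695 in replicate 2), 1969 bp upstream of the start (chromosome V, 20778180 to 20778656). Both genes also had an IDR peak in a promoter window. These 3 peaks were high in both replicates, with ranks between 9 and 26 of the 30000 regions in each replicate list. The fourth, near F58D12.3, had a signal of 1065 (411 in replicate 1 and 657 in replicate 2).

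Several other high ranked members lay near genes with known roles. The peak near nlp-40, a neuropeptide-like gene that acts from the intestine in the defecation rhythm, had a signal of 937 and lay 1912 bp downstream of its start, in the 646 bp between nlp-40 and rcor-1. The peak 1080 bp upstream of mtm-3, a myotubularin-family lipid phosphatase gene, had a signal of 933. The peak near nhr-88, a nuclear hormone receptor gene, had 800.4. A pair of peaks lay 5863 and 7209 bp upstream of F54F12.1, with signals of 887 and 558. The peak at ogt-1, the O-GlcNAc transferase gene, had 606, that at aakg-1, an AMP-activated protein kinase gamma subunit gene, had 577 at 8280 bp from the start, and that at egl-9, the prolyl hydroxylase gene that controls HIF-1, had 572 at 1744 bp. The remaining members among the 20 highest ranked lay near F40E3.3 (875), T04C4.3 (800.4), Y105C5A.1 (784), F07H5.13 (764), mfb-1 (667), F58D5.5 (593), F53E10.5 (552) and gldi-3 (549). Of the nearest genes of these 20 peaks, sup-26, hif-1, T04C4.3 and ogt-1 had a promoter peak as well.

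Most members were much weaker than these. The median signal was 128 (quartiles 96.5 and 198) over the 767 far intergenic peaks, against 123 (96.0 and 196) over the intronic peaks and 164 (108 and 290) over the promoter peaks. The lowest far intergenic signal was 76.9, close to the lowest in the whole list (76.8). Among the strongest 100 peaks of the list 11 were far intergenic, and among the strongest 500 there were 52. Both are below the 17.5% that the class made up of the whole list. The 2192 strongest peaks of the list held 40.7% of far intergenic peaks (interval 37.2 to 44.3), against 39.3% of intronic peaks (34.9 to 43.9) and 57.0% of promoter peaks (54.8 to 59.2). The difference from promoter peaks was -16.3 percentage points (95% Newcombe interval -20.4 to -12.2, two-sided Fisher's exact test, Benjamini-Hochberg adjusted p over 42 comparisons between classes = 5.5e-13). The difference from intronic peaks was 1.35 points (-4.26 to 6.88, exact adjusted p = 0.97). Peaks of 1 list are not replicates of each other, so these p-values describe this list and not the spread between animals.

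**Figure D1:**
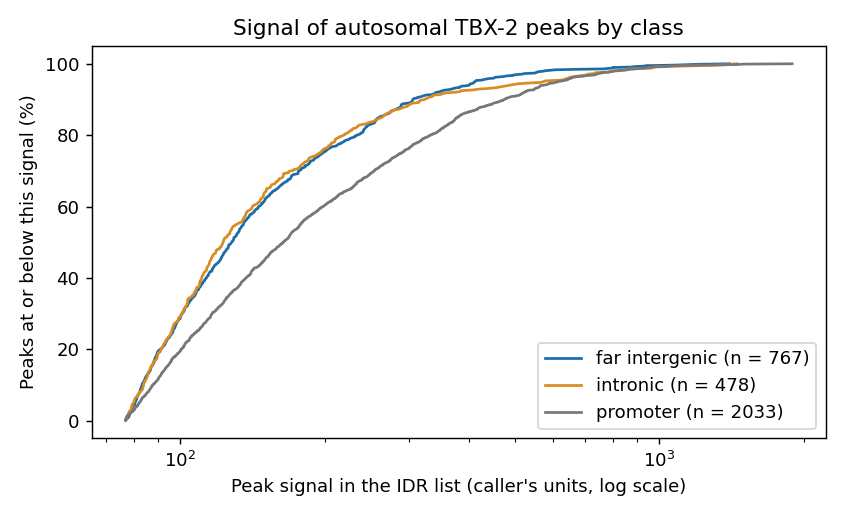
Cumulative share of autosomal IDR peaks (vertical axis, percent) at or below each signal (horizontal axis, the caller's units, log scale) for the 767 far intergenic, 478 intronic and 2033 promoter peaks. The far intergenic and intronic curves run together, with medians of 128 and 123, and the promoter curve lies to their right, with a median of 164.

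Values on either side of the promoter edge lay close together. The 28 members whose summit lay up to 100 bp outside an upstream promoter edge had a median signal of 145, and the 37 promoter peaks up to 100 bp inside it, which would otherwise have been far intergenic, had a median of 140.3. Of all members, 464 (60.5%) were exactly 400 bp wide, and the widths ranged from 100 to 1298 bp.

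Far intergenic peaks were found again in each replicate's own list. A member was counted as recovered when the nearest summit lay within 100 bp and belonged to as many of the strongest regions of that replicate list as there are IDR peaks. Replicate 1 recovered 84.4% of the members (647) and replicate 2 recovered 90.6% (695), against 87.3% and 91.8% of all IDR peaks. Both recovered 76.4% (586, interval 73.2 to 79.4), against 74.3% of intronic peaks (70.1 to 78.1) and 83.2% of promoter peaks (81.5 to 84.8). The share over all 4384 IDR peaks was 80.2%. The far intergenic share was below that of promoter peaks by -6.78 points (-10.3 to -3.45, Fisher's exact test, adjusted p = 0.00078) and differed from that of intronic peaks by 2.13 points (-2.72 to 7.14, exact adjusted p = 0.79). Recovery is not independent of the IDR list, which the same replicates gave. Among the 2192 strongest peaks of the list the difference from promoter peaks was -0.33 points (exact adjusted p = 0.94), and with promoters reaching 2000 bp upstream it was -4.53 points (exact adjusted p = 0.095).

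Recovery followed the strength of the peaks. Recovery needs a high rank in each replicate, and the pooled signal comes from the same replicates, so a fall is largely built in. When members were ordered by signal and cut into 5 groups of 153 or 154, both replicates recovered 99.4%, 98.7%, 94.8%, 68.6% and 20.3% of them from the strongest group to the weakest. Across the 742 members matched in both lists at any rank, Spearman's rho of the replicate signals was 0.78, and Pearson's r of the log2 signals was 0.85, both given as descriptions since all points come from the same pair of libraries. The signal of replicate 2 was above that of replicate 1 at 707 of these 742 members, and the median ratio of replicate 2 to replicate 1 was 1.65, close to the 1.61 over all IDR peaks. Lists of 30000 regions left 21 members without a match in replicate 1 and 5 without one in replicate 2, of which 1 had none in either. Over all 4384 IDR peaks, 91 had no match in replicate 1 and 37 had none in replicate 2.

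**Figure D2:**
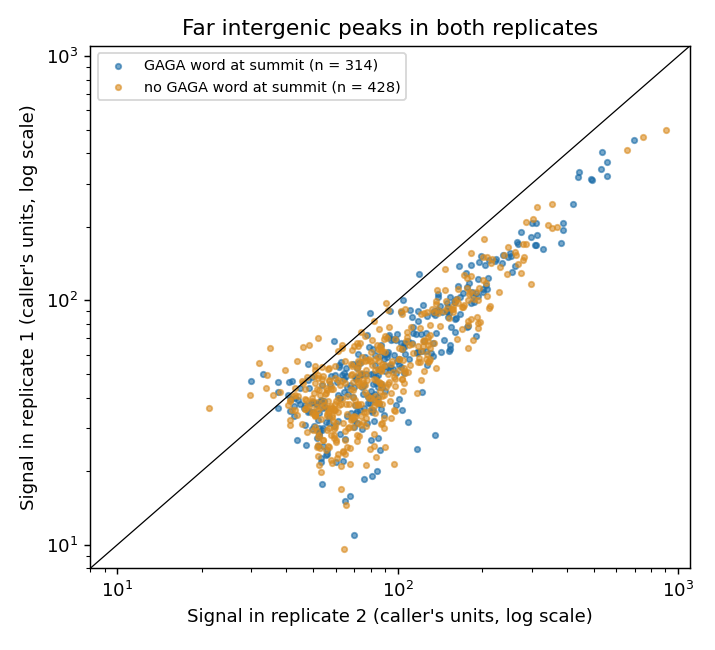
Signal of the 742 far intergenic peaks matched in both replicate lists, with replicate 2 on the horizontal axis and replicate 1 on the vertical axis (caller's units, log scales), coloured by whether GAGAGA lies within 50 bp of the summit. The line marks equal values. Points form 1 band below it at the high end, and the spread widens at low signal.

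The 5 matched members whose rank percentile differed most between replicates were all weaker in replicate 1. The peak near somi-1, a zinc-finger gene, had signals of 9.57 in replicate 1 and 64.4 in replicate 2, and that near cyn-2, a cyclophilin gene, had 10.9 and 69.8. The others were near M01A12.4 (14.5 and 65.2), egl-26 (15.1 and 64.8) and R12C12.6 (15.8 and 67.7), in the same order of replicates. Their pooled signals, from 76.9 to 110.4, all lay in the lower part of the list.

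The density of far intergenic peaks differed between parts of the genome that could hold them. The sequence that met the rule was 19.3 Mb, or 23.4% of the autosomes, and it held 39.7 peaks per Mb (exact Poisson 95% interval 36.9 to 42.6). Peaks of all classes over whole autosomes had 42.6 per Mb. Chromosome III had 51.7 peaks per Mb (144 peaks), I had 50.6 (142), II had 39.8 (142), IV had 36.2 (181) and V had 30.6 (158). The intervals of III (43.6 to 60.9) and V (26.0 to 35.8) did not overlap, while those of III and I did.

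With each chromosome cut into 3 equal parts, the middle was denser than the ends on each of the 5 autosomes. The middle parts held 317 members, 54.1 per Mb (48.3 to 60.4), and the outer parts held 450, 33.4 per Mb (30.4 to 36.7). The middle parts had 41.3% of the members and 30.3% of the sequence. The contrast was 48.5 against 22.7 peaks per Mb on V, 55.8 against 32.2 on II, 64.8 against 44.6 on I, 64.7 against 45.0 on III and 45.2 against 32.9 on IV. The intervals of the middle and outer parts overlapped on I, III and IV and did not on II and V.

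Members were sparse between gene ends. Between convergent genes, where both neighbours end, there were 56 members in 3.39 Mb, or 16.5 per Mb (12.5 to 21.4). Between divergent genes, where both neighbours start, there were 255 members, 45.8 per Mb (40.4 to 51.8), and between tandem genes there were 456, 44.1 per Mb (40.2 to 48.4). The nearest transcript start was ahead of the member, so that the peak lay upstream of it, in 572 of 767 members (74.6%, 71.3 to 77.6), while 63.6% of the sequence lies upstream of its nearest start. Upstream sequence held 46.5 members per Mb (42.8 to 50.5) and downstream sequence 27.7 (24.0 to 31.9).

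Density was also lower farther from the nearest start. The median distance was 2300 bp (quartiles 1500 and 3674). Sequence under 1500 bp from a start held 48.8 members per Mb (42.1 to 56.2), sequence from 2000 to 3000 bp held 44.0 (37.9 to 50.8), from 3000 to 5000 bp 36.8 (31.4 to 42.8), from 5000 to 10000 bp 27.3 (21.8 to 33.7), and sequence 10000 bp or more away 22.8 (13.0 to 36.9, 16 members). Signal changed little with distance, with medians of 126 under 1500 bp, 135 from 2000 to 3000 bp, 118 from 5000 to 10000 bp and 116 beyond.

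**Figure D3:**
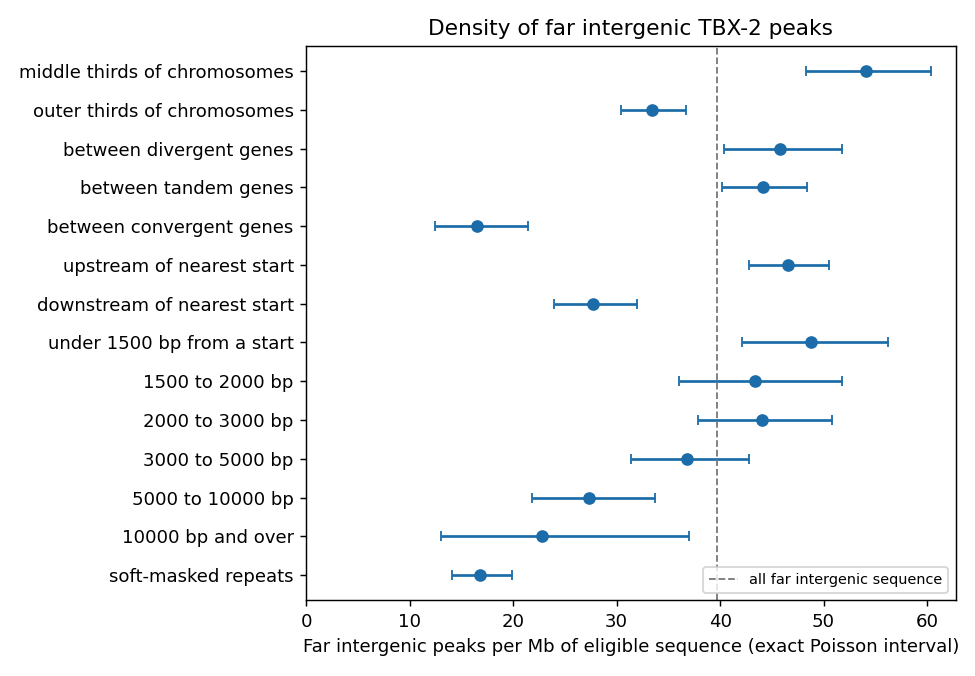
Far intergenic peaks per Mb of sequence that met the rule (horizontal axis, points with exact Poisson 95% intervals) by position along the chromosome (middle or outer parts), by orientation of the flanking genes, by side of the nearest protein-coding start and distance from it, and in soft-masked repeats. The dashed line is the density over all such sequence, 39.7 per Mb. The middle parts (54.1) lie above it, and convergent gaps (16.5) and repeats (16.8) lie below it.

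Annotated features within this sequence held unlike numbers of summits. Genes of the ncRNA biotype covered 1.36% of the sequence and held 66 members (8.60%, 6.72 to 10.8), or 252 per Mb (195 to 321). Genes of the lincRNA biotype covered 0.79% and held 15 members (1.96%, 1.10 to 3.21). Pseudogenes covered 12.2% and held 2 members (0.26%, 0.032 to 0.94). Sequence within 200 bp of a piRNA gene made up 7.89% and held 13 members (1.69%, 0.91 to 2.88). Soft-masked bases, which the RefSeq sequence marks as repeats or simple sequence, were 41.3% of the sequence and held the summits of 134 members (17.5%, 14.8 to 20.3), or 16.8 per Mb. How well short reads map in pseudogenes and repeats was not tested.

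The base composition at the summits differed from that beside them. Within 50 bp of the summit the median GC content of members was 45.5% (quartiles 39.6 and 50.5), against 33.7% (27.7 and 38.6) in equally wide windows 300 bp before or after the summit. GC content was higher at the summit in 656 of 767 members. The median over 184324 adjoining windows of 101 bp that tile the same kind of sequence was 33.7%. Intronic peaks (44.6%) and promoter peaks (45.5%) had similar summits. This shift goes along with every sequence count below. Its part in them was not tested, and ratios for words of the same bases are given beside the scan as a description.

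The T-box site itself was rare. GGTGTGA lay at 4 of 767 summits (0.52%, 0.14 to 1.33) and in 9 flanks (1.17%), a difference that did not pass the exact McNemar test (Benjamini-Hochberg adjusted p over 17 motifs = 0.35), and in 0.66% of all windows. The form AGGTGTGA was at 1 summit and in 4 flanks (exact adjusted p = 0.46). The shorter site GTGTGA, contained in both, was more frequent at the summit, with 64 members (8.34%, 6.49 to 10.5) against 33 flanks (4.30%, exact adjusted p = 0.0025), and 3.61% of all windows held it. It fell short of the threshold among members among the 2192 strongest peaks (exact adjusted p = 0.093). The shorter site was at 8.58% of intronic and 6.74% of promoter summits, and neither comparison passed the test (exact adjusted p = 1.0 and 0.53).

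The 4 members with the full site ranked between 1642 and 4246 of the 4384 listed peaks. The peak 3609 bp upstream of F54D1.6, beside gtl-2, a TRPM channel gene, had a signal of 179 (66.2 in replicate 1 and 113 in replicate 2). The peak 2391 bp upstream of mnk-1, a MAP kinase-interacting kinase gene, had 149 (47.5 and 104). The peak between xbp-1, a gene of the unfolded protein response, and asd-1, a splicing factor gene, had 80.6 (25.1 and 57.0). The peak 1913 bp upstream of pry-1, the Axin gene of the Wnt pathway, had 79.4 (46.9 and 29.8). The pry-1 peak was higher in replicate 1, and the other 3 were higher in replicate 2. The mnk-1 and asd-1 promoters held an IDR peak too.

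GAGA repeats marked far intergenic summits most often among the motifs. GAGAGAG lay at 168 summits (21.9%, 19.02 to 25.001) and in 22 flanks (2.87%, exact adjusted p = 5.3e-29), and 1.70% of all windows held it. The E-box CACGTG lay at 69 summits (8.996%) and in 16 flanks (2.09%, exact adjusted p = 1.4e-08), and the CA repeat ACACACA at 61 summits (7.95%) and in 15 flanks (1.96%, exact adjusted p = 1.3e-07). The Sp1-type site GGGCGG (40 summits, 15 flanks, exact adjusted p = 0.0023) and the E-box CAGCTG (26 summits, 8 flanks, exact adjusted p = 0.0040) also passed the test. The CAGCTG call was lost with flanks 500 bp away (exact adjusted p = 0.082), with flanks on the other side (0.18) and among the 2192 strongest peaks (0.093).

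The motifs that were less frequent at the summit past the threshold were made wholly or mostly of A and T. TATAAA was at 31 summits (4.04%) and in 107 flanks (14.0%, exact adjusted p = 1.0e-10), a run of 8 T at 37 summits and in 120 flanks (exact adjusted p = 6.1e-11), the homeobox core TAATTA at 15 summits and in 39 flanks (exact adjusted p = 0.0025), and the TCF site TTCAAAG at 10 summits and in 29 flanks (exact adjusted p = 0.0057). The homeobox call was lost in windows of 25 bp to each side (exact adjusted p = 0.067). The TCF call was lost in those narrower windows (exact adjusted p = 0.20), among the 2192 strongest peaks (0.32) and in the list of replicate 1 alone (0.13). The E2F-type site passed in the longer pooled list alone (exact adjusted p = 0.048). The GATA site TGATAAG, the forkhead site TGTTTAC, the AP-1 site TGACTCA, the E2F-type site TTTCCCGC and the E-box CATATG did not pass the test in the IDR list. Of these, the forkhead and AP-1 sites and CATATG had summit counts of 17, 8 and 12 members and flank counts of 15, 8 and 12.

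**Figure D4:**
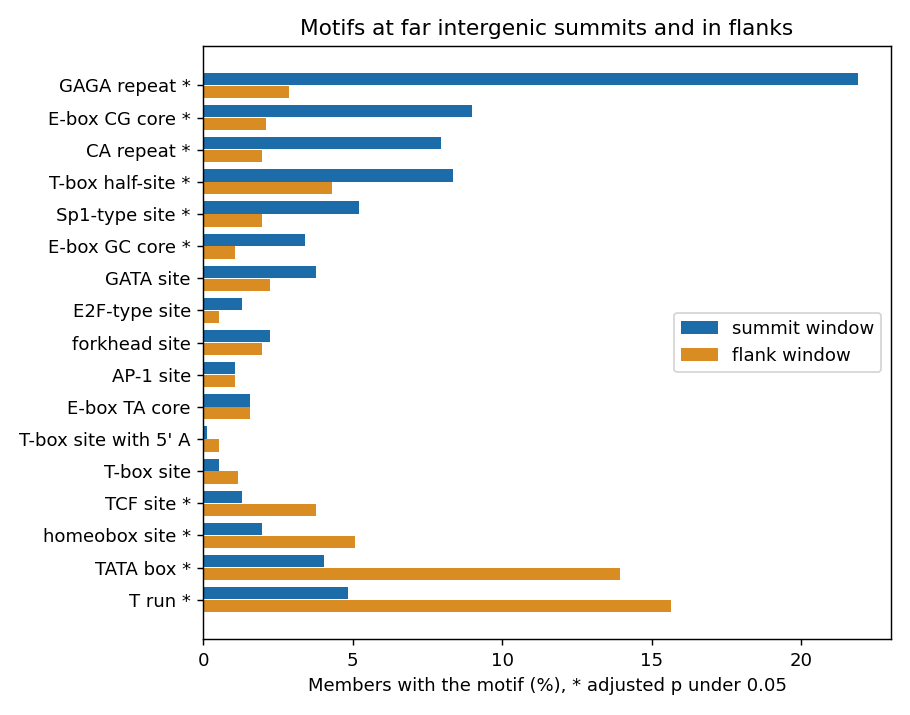
Share of the 767 far intergenic peaks with each of 17 motifs (horizontal axis, percent) in the 101 bp window at the summit (upper bar) and in the flank window (lower bar). Asterisks mark motifs with an adjusted p under 0.05. The GAGA repeat has the longest summit bar (21.9%), and the T run and TATA box have the longest flank bars (15.6% and 14.0%).

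Far intergenic summits held some motifs more often than promoter summits. The GAGA repeat was at 21.9% of far intergenic, 16.1% of intronic and 11.3% of promoter summits. The difference from promoter peaks was 10.6 points (7.502 to 14.0, Fisher's exact test, adjusted p = 8.8e-11), and the difference from intronic peaks, 5.79 points (1.27 to 10.1), did not pass after adjustment (exact adjusted p = 0.064). CACGTG was 3.68 points more frequent than at promoter summits (1.57 to 6.09, exact adjusted p = 0.0045), the CA repeat 3.08 points (1.09 to 5.38, exact adjusted p = 0.015) and the GATA site 2.50 points (1.22 to 4.15, exact adjusted p = 0.00089). None of the 17 motifs differed between far intergenic and intronic summits past the threshold in Fisher's exact test with this adjustment. Before adjustment, by the exact test, the GAGA repeat (p = 0.013), the CA repeat (p = 0.028) and CATATG (p = 0.014) were under 0.05.

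A scan covered all 2080 words of 6 bases, each counted with its reverse complement. By adjusted p it put the GAGA words first among those more frequent at the summit. At an adjusted p under 0.05 in the McNemar test, 371 words (17.8%) were more frequent at the summit and 286 (13.8%) less frequent. GAGAGA was at 318 summits (41.5%, 37.9 to 45.0) and in 58 flanks (7.56%, exact adjusted p = 1.7e-49), and 5.59% of all windows held it. The other classes had it too, at 34.3% of intronic summits (8.16% of flanks) and 23.8% of promoter summits (5.90% of flanks). Among the words less frequent at the summit AAAATT led, with 91 summits (11.9%) and 365 flanks (47.6%, exact adjusted p = 5.6e-49). Words without G or C were less frequent at the summit in 35 of 36 cases, and words of G and C alone were more frequent in 23 of 36. Among words made of the same bases, which have equal GC content, the ratio of summits to flanks was 5.48 for GAGAGA and had a median of 1.94 over the other 19 words made of the same bases. It was 4.31 for CACGTG against a median of 1.54 (4 of 102 words were higher), 3.25 for CAGCTG against 1.54 (9 of 102 higher) and 1.94 for GTGTGA against 1.13 (8 of 60 higher). For the Sp1-type site GGGCGG it was 2.67, below the median of 2.82 over the other words of its bases.

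The next words in the scan, named after their values were seen, overlap each other. AGAGAC (203 summits, 22 flanks), CGTCTC (180 and 15), ACGCAG (146 and 10), GACGCA (134 and 12), AGACGC (137 and 13) and CGCAGA (144 and 20) can be read off 1 longer stretch that contains AGACGCAG, and so are not separate results. ACGCAG had a summit to flank ratio of 14.6, the highest of the 90 words of its make-up, whose others had a median of 1.82. The element of 8 bases, AGACGCAG, lay at 14.99% of summits (12.5 to 17.7) and in 4 flanks (0.52%), and in 0.65% of all windows. Its summit share was 9.41% in intronic peaks (6.95 to 12.4) and 11.6% in promoter peaks (10.2 to 13.1). It is given here as a description with no test, since it was chosen by its count.

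Both words were more frequent at the summit than in the flank on every autosome. They were picked from the scan of these same summits, so the split and the profile describe them and are no further test. GAGAGA was at 49.3% of summits and 9.86% of flanks on I, 38.03% and 5.63% on II, 47.9% and 9.03% on III, 43.1% and 8.84% on IV and 29.7% and 4.43% on V. AGACGCAG was at 9.49% of summits on V, the lowest share, and at 18.3% on I, the highest. In bins of 50 bp, the share of members with GAGAGA was 25.3% and 24.9% on either side of the summit and was 2.999% in the bin 500 to 450 bp before it. Mean GC content was 45.5% and 44.9% in the same central bins and 33.8% at that distance. Within 200 bp of the summit, 549 members (71.6%) held GAGAGA, at a median of 40.5 bp from it, and 192 (25.03%) held AGACGCAG, at a median of 35.5 bp. This span is wider than the 101 bp windows used for the other shares. No background share at this width is given, so these shares cannot be set beside the flank shares.

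**Figure D5:**
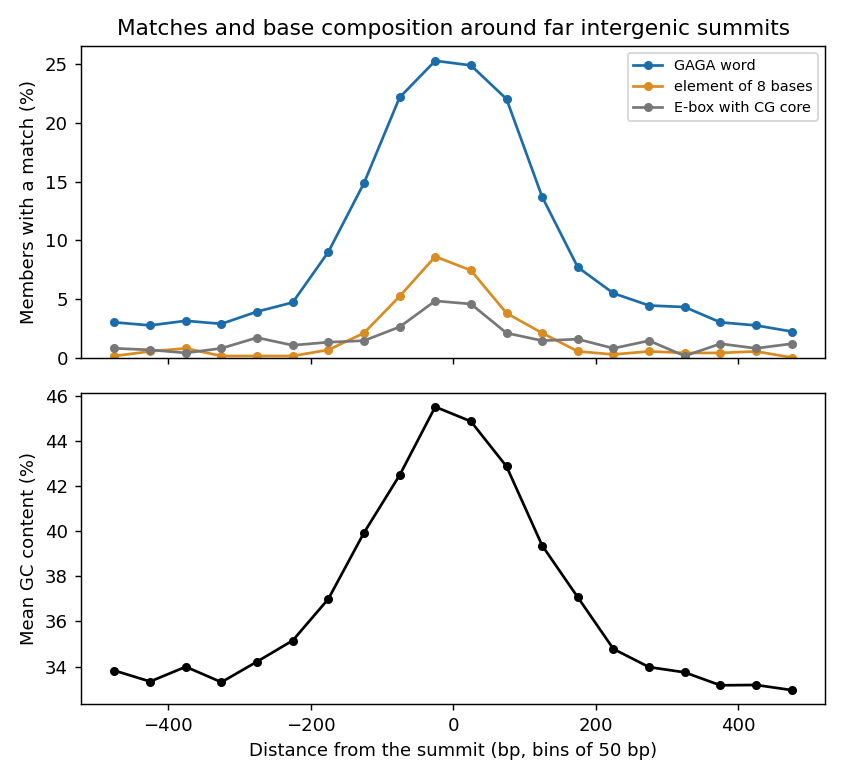
Upper panel, share of far intergenic peaks with a match (vertical axis, percent) in bins of 50 bp by distance from the summit (horizontal axis, bp) for the GAGA word, the element of 8 bases and the E-box. Lower panel, mean GC content (percent) in the same bins. All curves are highest beside the summit, the GAGA word at 25.3% and GC content at 45.5%.

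The strongest members carried the words most often. From the strongest to the weakest of the 5 groups by signal, GAGAGA was at 51.3%, 46.4%, 40.3%, 30.1% and 39.2% of summits, and AGACGCAG at 21.4%, 18.95%, 13.6%, 9.15% and 11.8%. The weakest group was above the fourth in both, so neither share fell steadily with signal. For AGACGCAG the share of either group lay within the interval of the other. For GAGAGA the intervals of these groups overlapped, but neither share lay within the interval of the other group. The median GC content was 48.5% in the strongest group and 43.6% in the weakest. The words can overlap, as in the window shown at T04C4.3, so a member with both need not hold separate sites. The 78 members with both words had a median signal of 162 (60.2 in replicate 1 and 102 in replicate 2), the 240 with GAGAGA alone 133, the 37 with AGACGCAG alone 142, and the 412 with neither 120.5 (47.2 in replicate 1 and 75.9 in replicate 2). CACGTG showed no such order, with 11.04% in the strongest group and 11.1% in the weakest.

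Most members stood alone. With summits within 2000 bp joined, 205 members (26.7%) fell into 89 clusters, 22 of them with 3 or more, and 562 had no far intergenic neighbour. Another IDR peak of any class lay within 2000 bp of 273 members (35.6%) and within 5000 bp of 462 (60.2%). The members lay in 573 of the 7295 gaps between protein-coding genes that held any sequence meeting the rule (7.85%), and 132 gaps held 2 or more. The gaps with a member had a median length of 5759 bp, against 2276 bp over all such gaps. A longer gap holds more sequence that meets the rule, so a difference in this direction is built in. Per Mb of such sequence, density did not rise steadily with gap length. From the shortest group of gaps to the longest it was 37.1 (30.6 to 44.6), 51.2 (45.1 to 57.9), 35.9 (31.4 to 40.9) and 34.7 (29.7 to 40.3).

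The largest cluster spanned 3402 bp between lpin-1, the lipin gene of phospholipid and fat synthesis, and letm-1, a mitochondrial inner membrane protein gene, which are divergent (chromosome V, summits 13655388 to 13658790). Its 5 summits had signals from 83.6 to 438. Of these, 2 lay 200 bp apart in regions that overlap. The summit at 13655388 had no match in replicate 2, and that at 13655588 had none in replicate 1, so the count of 5 rests on taking both. The strongest, nearest to letm-1, had 151 in replicate 1 and 282 in replicate 2. The 4 summits between pde-2, a phosphodiesterase gene, and R08D7.7 (chromosome III, 3008 bp) had signals from 93.7 to 218. The 4 summits upstream of F35G2.1 (chromosome IV, 3142 bp) had 86.8 to 179, and each held GAGAGA within 50 bp. All 3 clusters lay in divergent gaps.

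The members nearest to no gene were of ordinary strength. The farthest lay 16590 bp from the start of aakg-1, downstream of it and next to sql-1, with a signal of 131 (51.8 in replicate 1 and 76.9 in replicate 2). Next was a peak 15031 bp from T06A4.1, in the gap before zfh-2, a zinc-finger homeobox gene, with 114.97 and no match in replicate 1. The same gap held the peak 10863 bp from T06A4.1, with 97.3. The strongest of the 10 farthest was 13372 bp upstream of irld-18, in the gap of 35563 bp shared with dmd-6, a DM-domain gene, with 349 (149.9 in replicate 1 and 201 in replicate 2). Of the 4 members in the gap between nhr-46, a nuclear receptor gene, and C31H1.2, those of 257 and 90.9 were among the 10 farthest. Of the 5 members in the gap between snt-1, the synaptotagmin gene, and egl-27, an MTA-family chromatin gene, those of 117 and 183 were. The remaining peaks of the 10 were near C30G12.2 (85.4, at 12324 bp) and K01F9.2 (199.6, at 11486 bp). GAGAGA was at 1 of these 10 summits, near T06A4.1.

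Some of the members far from protein-coding starts lay within 1000 bp upstream of microRNA genes. The share of sequence that lies there is not given here, so these are named neighbours without a background to set beside them. A summit 114 bp upstream of mir-53 had a signal of 261 (98.6 in replicate 1 and 160 in replicate 2), and a pair of summits 720 and 213 bp upstream of mir-52 had 337 (156 and 182) and 242 (82.2 and 178). The summit 275 bp upstream of mir-80 had 199.6 (70.7 and 128), and is the peak named above near K01F9.2. The summit 418 bp upstream of mir-1, a muscle microRNA, had 137 (37.5 and 98.3). The summit 431 bp upstream of mir-228 had 87.0 and no match in replicate 1. The summit upstream of the mir-42, mir-43 and mir-44 genes, 196 bp from the nearest of them, had 78.4 (41.1 and 35.8).

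The 636 distinct genes nearest to members had a promoter peak of their own in 139 cases (21.9%), against 2716 of all 17242 autosomal protein-coding genes (15.8%). The nearest gene need not be the one a distant element acts on. There were 101 genes nearest to 2 or more members. K08F11.1 had 5, with a highest signal of 454 and no promoter peak, and egl-27 had 4, with a highest signal of 226 and a promoter peak.

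Among all autosomal protein-coding genes, 3.69% were the nearest gene of a member, and 8 members lay next to genes of the 4 short lists that follow (pharynx, T-box, heterochronic and Wnt). In the list of pharynx genes and candidate TBX-2 targets, 1 of 20 autosomal genes was next to a member, which was pha-4, the FoxA gene that specifies the pharynx. Its 2 peaks were 0.26% of members, against 0.57% of all autosomal peaks next to a gene of the list, which holds 0.12% of genes. A peak 3752 bp upstream of it had a signal of 104 (20.01 in replicate 1 and 84.6 in replicate 2), and a peak 5070 bp downstream of its start, toward elp-1, had 152 (52.1 and 101). The peak upstream of the start ranked 7169 in the list of replicate 1. Of 16 autosomal T-box genes, tbx-33 had a member 4690 bp upstream, with 139 (56.2 and 85.9). The T-box list thus took 0.13% of members, 0.34% of peaks and 0.093% of genes. Of 5 autosomal heterochronic genes, lin-41, a timing gene that let-7 represses, had one 1454 bp upstream, with 277 (80.9 and 193). The heterochronic list took 0.13% of members, 0.11% of peaks and 0.029% of genes.

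In the Wnt list, 4 of 24 autosomal genes were next to a member, and the list took 0.52% of members, 0.40% of all autosomal peaks and 0.14% of genes. These were kin-19, a casein kinase gene (signal 126), pop-1, the TCF gene (109), lit-1, the Nemo-like kinase gene (107), and pry-1 (79.4), and all 4 signals were under the median of the class. The pop-1 and lit-1 promoters held an IDR peak too.

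Larger families differed in how often they were the nearest gene. Nuclear receptor genes were nearest to 21 members (2.74%), against 1.79% of all autosomal IDR peaks and 1.43% of autosomal protein-coding genes. Homeobox genes were nearest to 4 (0.52%, against 0.65% of peaks and 0.39% of genes) and ribosomal protein genes to 3 (0.39%, against 1.17% and 0.43%). Chemoreceptor genes, 7.72% of the genes, were nearest to 11 members (1.43%) and to 0.82% of all autosomal peaks. C-type lectin genes were nearest to 2 members (0.26%, against 0.085% of peaks and 1.37% of genes), and ion channel genes to 3 (0.39%, against 0.34% and 0.59%). Neuropeptide genes were nearest to 2 (0.26%, against 0.34% and 0.61%). Collagen genes were nearest to 1 (0.13%, against 0.40% and 0.75%), as were F-box and BATH or MATH genes (0.13%, against 0.34% and 2.19%). None of the 19 autosomal bHLH genes was nearest to a member, while 0.26% of all autosomal peaks were nearest to one. These are counts with no test.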

How the data were processed

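ChIP-seq of tagged TBX-2 was analysed from the lists of regions the authors deposited on ce11, 30000 regions per replicate and pooled, and the IDR list. Per the notes deposited with the samples, each list came from alignments of the replicates and a control file. The sources used here do not give aligner, peak caller, IDR threshold or control strain. The signal in the deposited lists is the caller's strength of a region, on an unstated scale, and served to rank and describe. The −log10 q-value in the deposited IDR list takes 1 value (4.01) and was not used further. No counts were used, so depth is unknown, and intervals cover the counting of peaks only.

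Summits were placed on Ensembl WBcel235 release 115, whose chromosome lengths hold all peaks, and on the RefSeq sequence of the same assembly, with Python 3.11.15, numpy 2.4.6, pandas 2.3.3, scipy 1.17.1 and statsmodels 0.14.6. Classes were compared by two-sided Fisher's exact tests (42, Benjamini-Hochberg adjusted), and summits with flanks by exact McNemar tests, adjusted over 17 motifs or 2080 words. The flank lay 300 bp before the summit or after it, by whether the start in the file was odd or even. The scan was tested on simulated windows with words planted at the summit. Summit and flank windows had the same base composition there, so the simulation cannot show how the scan behaves under the GC shift. Members, motifs, lists and alternatives were chosen with earlier results of these data known.

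Named members are the 20 highest in mean rank percentile over the replicates, all with GGTGTGA, the 10 farthest from a start, the 3 largest clusters, the 5 most unlike between replicates, those within 1000 bp upstream of a microRNA gene, and those next to pharynx, T-box, heterochronic or Wnt genes. Other genes and words were named after their values were seen. Alternatives changed the promoter window, the small RNA distance, the matching rule, the motif window and flank, the cluster gap and the list, and each replicate was left out in turn. The choice of 1 peak per cluster was added last, after the results here were seen. The ce10 lists were not analysed here, apart from the number of peaks in the ce10 IDR list (5737), which set the length of the pooled list tried.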

Additional observations from a re-analysis of the deposited data

How the results depend on the processing

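Counts that depend on the rule moved with it. The share of autosomal peaks was 28.0% with promoters of 500 bp upstream and 100 bp downstream and 14.1% with 2000 bp upstream, 17.5% among the 2192 strongest peaks and 23.8% in the longer pooled list. Peaks per Mb were 34.8 with 2000 bp upstream, and 16.2 and 56.1 in the shorter and longer lists, which hold fewer and more peaks by construction. The median distance was 1837 bp and 3158 bp under the narrower and wider promoters. Words past the threshold numbered 365 with windows of 25 bp, 402 with 2000 bp promoters and 355 among the 2192 strongest peaks. The last 2 hold fewer members. The median GC difference, 11.9 points, was 9.95 with windows of 100 bp and 13.9 among the 2192 strongest peaks. Recovery in both replicates was 67.4% within 50 bp, 79.8% by any overlap and 98.7% among the 2192 strongest peaks. The gap in recovery from promoter peaks was -0.33 points among the 2192 strongest peaks (exact test, adjusted p = 0.94) and -4.53 with 2000 bp promoters (exact test, adjusted p = 0.095). The cause was not tested. Members in clusters made up 10.7% with summits joined within 1000 bp, 40.0% within 5000 bp and 15.1% among the 2192 strongest peaks. Members next to a gene of any list were 7.30%, and 14.1% by both flanking genes. Leaving out either replicate changed no summary count or share beyond the limits used here (1.5 times for counts, the interval for shares). It cost the TCF site its call in the list of replicate 1. The GAGA repeat, CACGTG and GAGAGA kept their direction and their call under every alternative run, 1 peak per cluster (651 peaks) included. Read depth is unknown, and its bearing on the weakest members was not tested.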
